A study of Mus musculus with 15 samples.

Results

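The enzymes of the urea cycle and of ornithine synthesis were described in sorted epithelial cells of the mouse intestine. They are 9 genes of the 27179 in the count table, chosen by gene symbol: Nags, Cps1, Otc, Slc25a15, Ass1, Asl, Arg2, Oat and Aldh18a1. The mice were Lrig1-eGFP-IRES-CreERT2 x APCmin, so that every group, normal tissue included, carried both alleles. The reporter places a green fluorescent protein and an inducible Cre at Lrig1, a gene of intestinal stem and progenitor cells, and the APCmin mutation gives intestinal tumors. EpCam+ cells without CD45 and CD31 were sorted by reporter signal, from dissected tumors or normal epithelium that the labels place in the colon. The groups were tumor Lrig1-high (3 libraries), tumor Lrig1-low (3 of 4 libraries), normal Lrig1-high (4 libraries) and normal Lrig1-low (4 libraries). The 4th tumor Lrig1-low library (S15), nearly empty at 357 counts, was not used. Values per library are given in the order S04, S08 and S12 for tumor Lrig1-high, S03, S07 and S11 for tumor Lrig1-low, S02, S06, S10 and S14 for normal Lrig1-high and S01, S05, S09 and S13 for normal Lrig1-low. All 9 members passed the filter on low counts. The labels name no animal, age or treatment. The p-values therefore reflect only how far these libraries differ, which may be technical.

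The 14 libraries held 9508505 to 17296536 counts, and mitochondrial ribosomal RNA took 12.9% to 42.8% of them. The tumor Lrig1-high library S12 had the largest such share and the fewest genes with a count, 11995. Lrig1 itself overlapped between the sort labels, in CPM (counts scaled to library size with TMM factors). It had 55.7 to 148 CPM in tumor Lrig1-high and 43.0 to 142 CPM in tumor Lrig1-low libraries. Normal Lrig1-high libraries had 36.4 to 146 CPM and normal Lrig1-low libraries 45.3 to 85.5 CPM. S07, S08, S09 and S10 were taken as going against their label by Lrig1, without a fixed cutoff, and groups are named by their labels throughout. The epithelial gene Epcam stood at 605 to 1509 CPM. Of the labelled tissue, 8 colon markers summed to 39.8 to 154 CPM in tumor and 71.5 to 288 CPM in normal libraries, with Car1 and Hoxb13 under 1 CPM in all 14. The 9 small intestine markers summed to 686 to 3808 CPM in tumor and 924 to 5059.6 CPM in normal libraries, and the colon is named here from the labels only. The hepatocyte markers Apoh, Ahsg, Tdo2 and Fgb were under 1 CPM in every library, and the list summed to 33.5 to 66.5 CPM in tumor and 9.58 to 63.9 CPM in normal libraries. Fibroblast markers summed to 32.4 to 367 CPM in tumor and 14.1 to 34.9 CPM in normal libraries, with Col1a1, Col1a2, Col3a1, Dcn, Lum and Postn under 1 CPM everywhere. Of 4 fibroblast markers tested, 1 was higher in tumor cells over both fractions (edgeR adjusted p under 0.05) and 0 lower. Among all 13883 genes tested, 253 were higher and 55 lower. Leukocyte markers summed to 14.8 to 57.2 CPM in tumor and 6.54 to 33.6 CPM in normal libraries. Of these, Ptprc, the gene of CD45, had 0.476 to 46.1 CPM in tumor and 0 to 11.2 CPM in normal libraries. Endothelial markers summed to 7.29 to 194 CPM in tumor and 2.71 to 42.1 CPM in normal libraries. Pecam1, the gene of CD31, had 0 to 1.11 CPM in tumor and 0 to 1.85 CPM in normal libraries. Cd3e, Kdr and Plvap were under 1 CPM everywhere. For 3 of 5 endothelial markers tested, all tumor libraries lay above all normal ones within Lrig1-low cells, against 9.95% of all genes. Their part in the results was not tested.

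The urea cycle turns ammonia into urea in the liver. In mitochondria Cps1 joins ammonia and bicarbonate to carbamoyl phosphate, which Otc couples to ornithine to give citrulline, and in the cytosol Ass1, Asl and an arginase turn citrulline into arginine and then into urea and ornithine. The absorptive cells of the intestine are known to run the mitochondrial part: Aldh18a1 and Oat make ornithine from glutamate, and the citrulline made from it is released to the blood, from which the kidney makes arginine. In the adult gut the cytosolic steps Ass1 and Asl are known to be weak.

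Promoter sequences are shown for the 3 members that passed the test between tumor and normal cells, Aldh18a1, Oat and Slc25a15, and for Otc, the enzyme that makes citrulline. Each is the 210 bases before the gene's first transcript start in RefSeq (GRCm38.p6), in the gene's own direction. The Aldh18a1 stretch lies at chr19:40588464-40588673 (minus strand), that of Oat at chr7:132576399-132576608 (minus strand), that of Slc25a15 at chr8:22398622-22398831 (minus strand) and that of Otc at chrX:10252095-10252304 (plus strand). Capitals mark TTTATG, a motif of the intestinal CDX factors, read on either strand.
Aldh18a1: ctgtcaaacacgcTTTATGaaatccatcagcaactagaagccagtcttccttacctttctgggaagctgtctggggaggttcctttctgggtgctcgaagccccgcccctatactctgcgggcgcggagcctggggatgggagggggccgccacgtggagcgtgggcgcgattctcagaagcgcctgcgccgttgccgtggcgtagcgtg
Oat: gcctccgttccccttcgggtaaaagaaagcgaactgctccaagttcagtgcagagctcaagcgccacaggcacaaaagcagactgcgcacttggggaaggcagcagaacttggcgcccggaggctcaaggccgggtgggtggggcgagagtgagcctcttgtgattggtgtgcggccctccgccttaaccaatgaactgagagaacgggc
Slc25a15: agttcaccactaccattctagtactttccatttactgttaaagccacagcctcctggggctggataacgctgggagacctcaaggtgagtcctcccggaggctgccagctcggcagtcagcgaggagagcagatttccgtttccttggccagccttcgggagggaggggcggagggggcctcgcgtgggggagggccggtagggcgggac
Otc: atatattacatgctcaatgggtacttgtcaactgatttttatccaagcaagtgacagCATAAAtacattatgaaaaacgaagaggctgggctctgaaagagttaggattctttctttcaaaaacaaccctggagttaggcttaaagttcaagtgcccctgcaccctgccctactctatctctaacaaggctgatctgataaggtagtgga

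The set of RefSeq promoters used here held 6 of the 9 members (not Cps1, Arg2 or Asl). Both strands of the 250 bases before each start were searched for 5 motifs. The CDX motif TTTATG was found once before Aldh18a1 (bases -197 to -192) and once before Otc (-153 to -148, on the opposite strand). It stood in 10.8% of all 32851 promoters of this length. The TCF/LEF motif CTTTGAT was found once, before Nags (-204 to -198, on the opposite strand), and stood in 3.21% of all promoters. The HNF4 motif CAAAGTCCA was in none of the members' promoters and in 0.384% of all. The GATA factor motif AGATAA was likewise in none and in 9.99% of all. The core promoter motif TATAAA was in none and in 12.4% of all. None of the 5 was found before Oat, Ass1 or either start of Slc25a15, no matches overlapped, and a match is a description only. The GC content of the 250 bases was 57.2% for Aldh18a1, 60.0% for Oat, 57.6% for the first start of Slc25a15 and 43.6% for Otc, against a median of 52.4% over all promoters. The second start of Slc25a15 had 80.4%, above the 95th percentile of all promoters, 73.6%.

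Levels were compared between the members per kb of exon, as the mean of the 14 libraries. Oat was the most abundant transcript of the 9 at 472 ± 202 CPM per kb (SD, n = 14), and Cps1 came next at 296 ± 132 CPM per kb. Between them these mitochondrial enzymes made up most of the members' RNA: the share of Oat in the 9 genes' CPM per kb was 35.9% to 54.3% and that of Cps1 14.6% to 46.7%. Arg2, the mitochondrial arginase, stood at 90.3 ± 69.0 CPM per kb and Aldh18a1, which makes the precursor of ornithine, at 71.4 ± 26.7 CPM per kb. Then came Otc at 51.7 ± 18.8, the ornithine carrier Slc25a15 at 32.6 ± 12, Nags at 13.5 ± 7.5, Asl at 11.6 ± 4.1 and Ass1 at 3.24 ± 2.09 CPM per kb. By this mean over all libraries the cytosolic steps Asl and Ass1 were the least abundant of the 9, but in tumor libraries Nags lay below Asl. Most neighbours in this order kept it in nearly all libraries, with Oat above Cps1 in 11 of 14 and Cps1 above Arg2 in 13 of 14. Arg2 was above Aldh18a1 in 7 of 14 libraries, among them all the normal Lrig1-low ones, so this pair had no single order. Nags was above Asl in 8 of 14, which were all the normal libraries, and below it in all the tumor libraries. Nags averaged 18.8 CPM per kb in normal and 6.33 in tumor libraries, and Asl 11.6 in normal and 11.8 in tumor libraries. Arg1, the cytosolic arginase of the liver, named after its values were seen, had 0 to 12 CPM in tumor and 1.88 to 4.0 CPM in normal libraries.

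**Figure D1:**
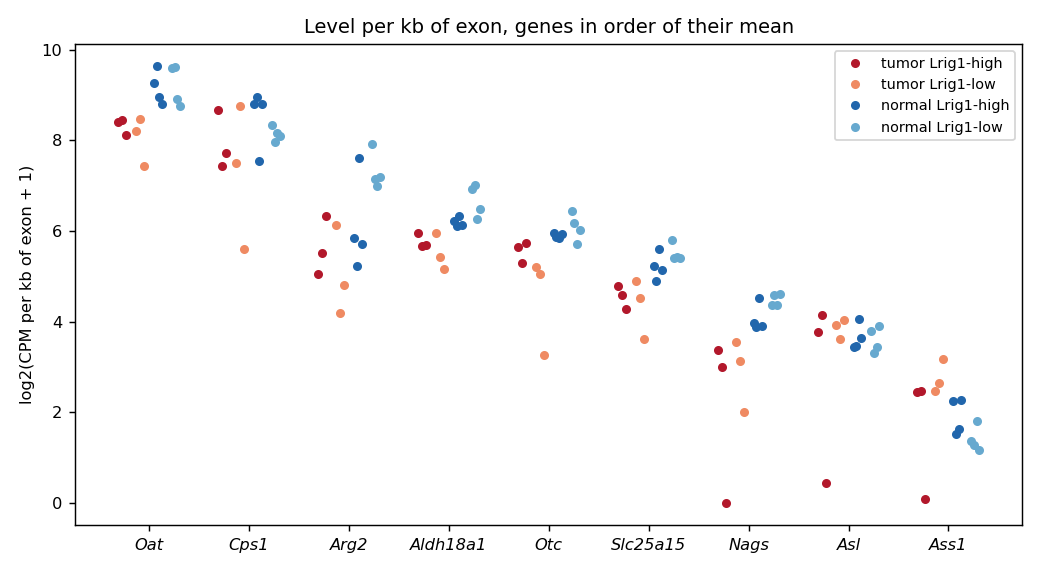
Level of the 9 genes in each of the 14 libraries, as log2(CPM per kb of exon + 1), with genes in order of their mean and colours for the 4 groups. Oat and Cps1 have the highest means and Asl and Ass1 the lowest. The tumor Lrig1-high library S12 lies far below the others for Nags, Asl and Ass1.

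Nags (gene 217214, mm10 chr11:102145587-102149476, plus strand) makes N-acetylglutamate, the activator that Cps1 needs. It had 19.8, 14.9 and 0 CPM in tumor Lrig1-high, 22.6, 16.6 and 6.44 CPM in tumor Lrig1-low, 30.8, 28.9, 46.7 and 29.5 CPM in normal Lrig1-high and 41.2, 49.0, 41.7 and 49.8 CPM in normal Lrig1-low libraries. All 6 tumor libraries lay below all 8 normal libraries. The 0 is library S12, where a count of 0 allows up to 3 counts or 0.324 CPM (counting error only). Cps1 (gene 227231, chr1:67123066-67230448, plus strand), which takes ammonia into the cycle, had 1905, 814 and 983 CPM in tumor Lrig1-high, 844, 2025 and 226 CPM in tumor Lrig1-low, 2086, 2329, 869 and 2102 CPM in normal Lrig1-high and 1513, 1174, 1332 and 1277 CPM in normal Lrig1-low libraries. The groups overlapped: S04, S07 and S12 among the tumor libraries lay within the normal range, and S11 was the lowest of all.

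Otc (gene 18416, chrX:10252359-10321024, plus strand), which makes citrulline, had 111, 86.5 and 119 CPM in tumor Lrig1-high, 81.1, 73.1 and 19.5 CPM in tumor Lrig1-low, 138, 129.8, 127 and 136 CPM in normal Lrig1-high and 195, 161, 117 and 146 CPM in normal Lrig1-low libraries. The tumor Lrig1-low libraries were the 3 lowest of the 14, and only S12 among the tumor libraries reached the lowest normal one. Slc25a15 (gene 18408, chr8:22375550-22398621, minus strand), the carrier that exchanges ornithine and citrulline across the inner mitochondrial membrane, had 92.0, 79.7 and 63.8 CPM in tumor Lrig1-high, 99.1, 75.8 and 38.7 CPM in tumor Lrig1-low, 127, 99.9, 163 and 119 CPM in normal Lrig1-high and 189, 142, 145 and 143 CPM in normal Lrig1-low libraries. All tumor libraries lay below all normal ones, with S03 and S06 nearly level.

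Ass1 (gene 11898, chr2:31470270-31520670, plus strand), which joins citrulline and aspartate, was low throughout. It had 7.21, 7.39 and 0.108 CPM in tumor Lrig1-high, 7.46, 8.62 and 13.2 CPM in tumor Lrig1-low, 6.18, 3.05, 3.39 and 6.23 CPM in normal Lrig1-high and 2.61, 2.33, 4.09 and 2.02 CPM in normal Lrig1-low libraries. The tumor libraries other than S12, which held 1 read of Ass1, all lay above all normal ones. Asl (gene 109900, chr5:130011503-130024331, minus strand), which releases arginine, had 19.3, 25.4 and 0.541 CPM in tumor Lrig1-high, 21.8, 17.1 and 23.7 CPM in tumor Lrig1-low, 15.1, 15.3, 23.9 and 17.5 CPM in normal Lrig1-high and 19.7, 13.5, 15.1 and 21.2 CPM in normal Lrig1-low libraries. Its groups overlapped, and S12 stood far below the rest with 5 reads.

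Arg2 (gene 11847, chr12:79130788-79156301, plus strand), which splits arginine into urea and ornithine in mitochondria, had the largest spread for its mean. It had 45.7, 63.3 and 113 CPM in tumor Lrig1-high, 97.7, 24.4 and 38.6 CPM in tumor Lrig1-low, 80.3, 51.5, 277 and 73.4 CPM in normal Lrig1-high and 344, 198, 180.3 and 205 CPM in normal Lrig1-low libraries. The normal Lrig1-low libraries and S10 were the 5 highest of the 14, and the other normal Lrig1-high libraries lay among the tumor ones.

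Oat (gene 18242, chr7:132557475-132576398, minus strand), the aminotransferase between ornithine and pyrroline-5-carboxylate, had 725, 745 and 599 CPM in tumor Lrig1-high, 633, 764 and 369 CPM in tumor Lrig1-low, 1322, 1719.8, 1074 and 960.2 CPM in normal Lrig1-high and 1665, 1699, 1034 and 934 CPM in normal Lrig1-low libraries. Every tumor library lay below every normal one. Aldh18a1 (gene 56454, chr19:40550257-40588463, minus strand), the synthase that turns glutamate into pyrroline-5-carboxylate, had 214, 176 and 178 CPM in tumor Lrig1-high, 214, 148 and 123 CPM in tumor Lrig1-low, 258, 239.8, 281 and 244 CPM in normal Lrig1-high and 422, 452, 267 and 312 CPM in normal Lrig1-low libraries. Here too all 6 tumor libraries were the lowest of the 14.

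**Figure D2:**
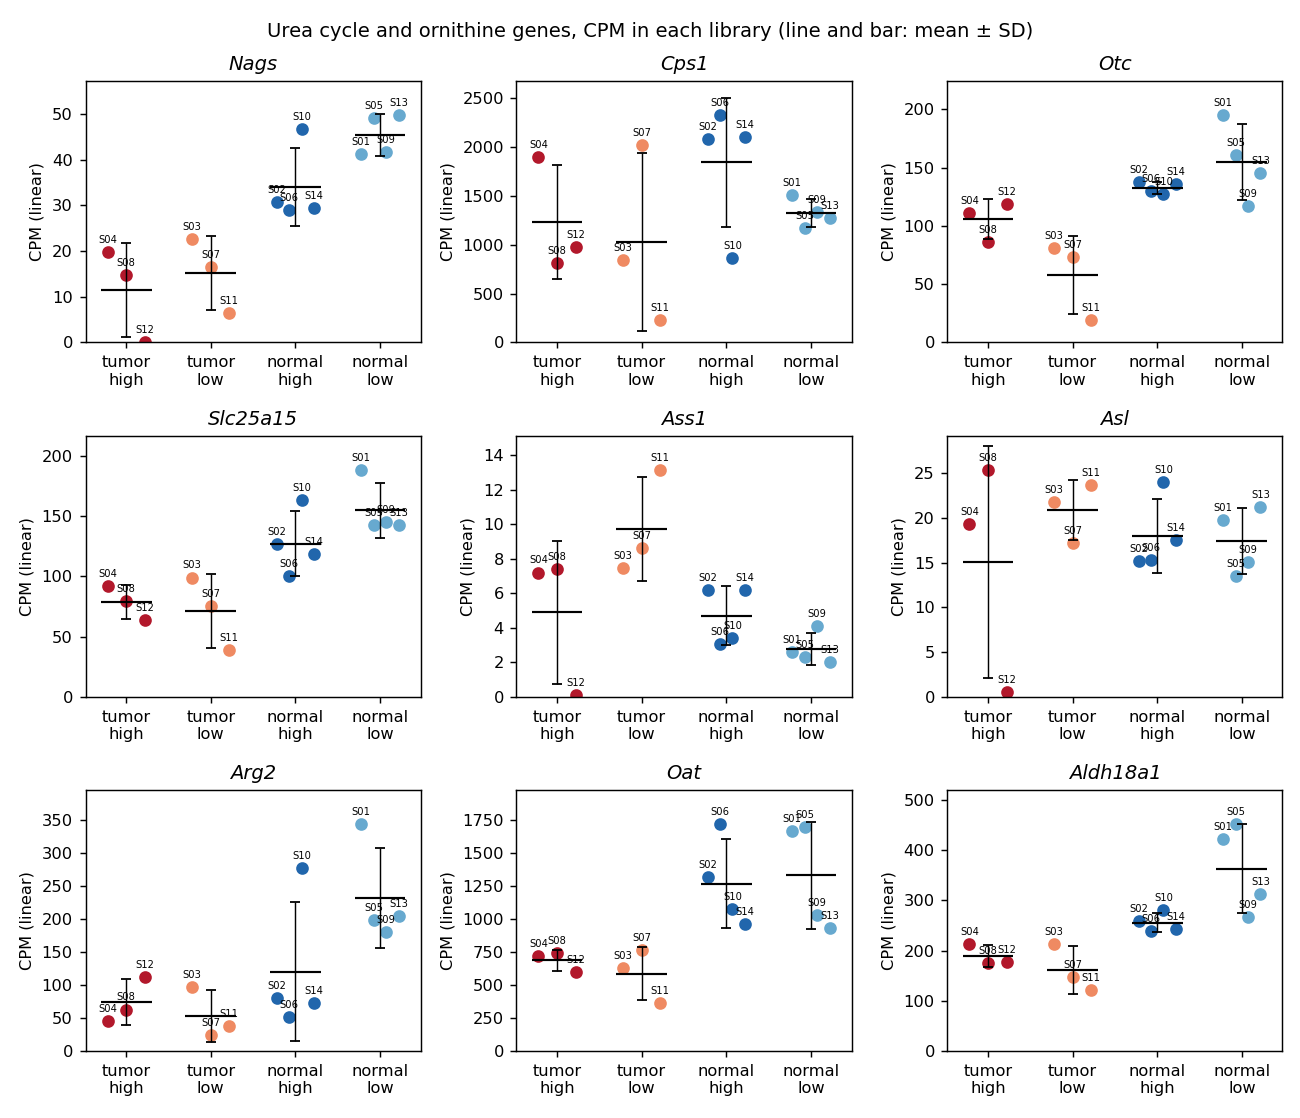
CPM of each of the 9 genes in each library, on linear axes from 0, for tumor Lrig1-high and Lrig1-low and normal Lrig1-high and Lrig1-low cells, with a line for the group mean and a bar for its SD (n = 3, 3, 4 and 4). For Nags, Slc25a15, Oat and Aldh18a1 the 6 tumor points lie below the 8 normal points.

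Tumor and normal cells were compared over both sort fractions, to ask how the pathway differs in tumors, as the mean of the 2 within-fraction log2 differences. Oat and Aldh18a1, which lead from glutamate to ornithine, and the ornithine carrier Slc25a15 fell in tumor cells. Arg2, which makes ornithine from arginine, had a more negative log2 fold change than these, -1.41 ± 0.43 (SE). With its wider spread it did not pass (edgeR adjusted p = 0.101), so the test does not set it apart from them. Oat averaged 639 ± 148 CPM in tumor and 1301 ± 346 CPM in normal libraries (SD, n = 6 and 8), a log2 fold change of -1.03 ± 0.24 (SE) with an adjusted p = 0.0426 in edgeR's quasi-likelihood test. Aldh18a1 averaged 175 ± 36.1 CPM in tumor and 309 ± 82.2 CPM in normal libraries (log2 fold change -0.80 ± 0.17, edgeR adjusted p = 0.0328), and Slc25a15 74.8 ± 21.6 CPM in tumor and 141 ± 27.2 CPM in normal libraries (-0.91 ± 0.20, adjusted p = 0.0360). With these, 3 of the 9 members were lower and 0 higher, where 2.22% of the 13883 genes tested passed in either direction and 0.396% passed as lower. In 4 of the 9 members (Nags, Slc25a15, Oat and Aldh18a1) all tumor libraries lay below all normal ones, against 0.569% of all genes. The median log2 fold change was -0.87 over the 9 members and -0.02 over all genes tested. Because the members were chosen with earlier results of these data known, these shares are a description and not independent support.

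The other members did not pass this test. Nags had a log2 fold change of -1.56 ± 0.62 (SE, edgeR adjusted p = 0.204), Arg2 -1.41 ± 0.43 (adjusted p = 0.101) and Otc -0.87 ± 0.25 (adjusted p = 0.0906). Cps1 differed by -0.47 ± 0.40 (adjusted p = 0.603), Asl by 0.01 ± 0.49 (adjusted p = 0.998) and Ass1 by 0.94 ± 0.57 (adjusted p = 0.434). The values for Nags, Asl and Ass1 turn on library S12, without which Nags passed at -1.30 ± 0.27 (adjusted p = 0.0398), Ass1 stood at 1.18 ± 0.28 (adjusted p = 0.0568) and Asl at 0.25 ± 0.17 (adjusted p = 0.476). Arg2 passed without S03, at -1.84 (adjusted p = 0.0466). DESeq2 called 5 members lower, adding Arg2 (adjusted p = 0.0190) and Otc (adjusted p = 0.0260), with 310 genes lower in all. Limma-voom with sample weights called 1 member lower (Aldh18a1), the edgeR fit with S15 called 1 (Slc25a15), and the fit without S07, S08, S09 and S10 called 0.

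The 3 calls were close to the threshold. Leaving out 1 of the 14 libraries at a time kept the call of Aldh18a1 in 5, of Oat in 4 and of Slc25a15 in 4 fits. That of Aldh18a1 was lost without S01, S02, S05, S06, S07, S08, S11, S13 or S14 (adjusted p 0.0557 to 0.101), that of Oat without S01, S02, S03, S05, S06, S08, S11, S12, S13 or S14 (0.0618 to 0.118) and that of Slc25a15 without S01, S02, S05, S06, S07, S08, S11, S12, S13 or S14 (0.0514 to 0.0906). The log2 fold change stayed between -0.96 and -0.72 for Aldh18a1, -1.15 and -0.91 for Oat and -1.09 and -0.76 for Slc25a15. The labels name no batch. Within the 3 runs of consecutive library numbers that hold all 4 groups, tumor was below normal in 6 of 6 pairs for Oat, Aldh18a1, Slc25a15, Otc and Nags, in 5 of 6 for Arg2, in 4 of 6 for Cps1 and in 1 of 6 for Ass1 and for Asl. With these runs as a block, Aldh18a1 (adjusted p = 0.0440) and Oat (0.0152) passed and Slc25a15 did not (0.0573).

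**Figure D3:**
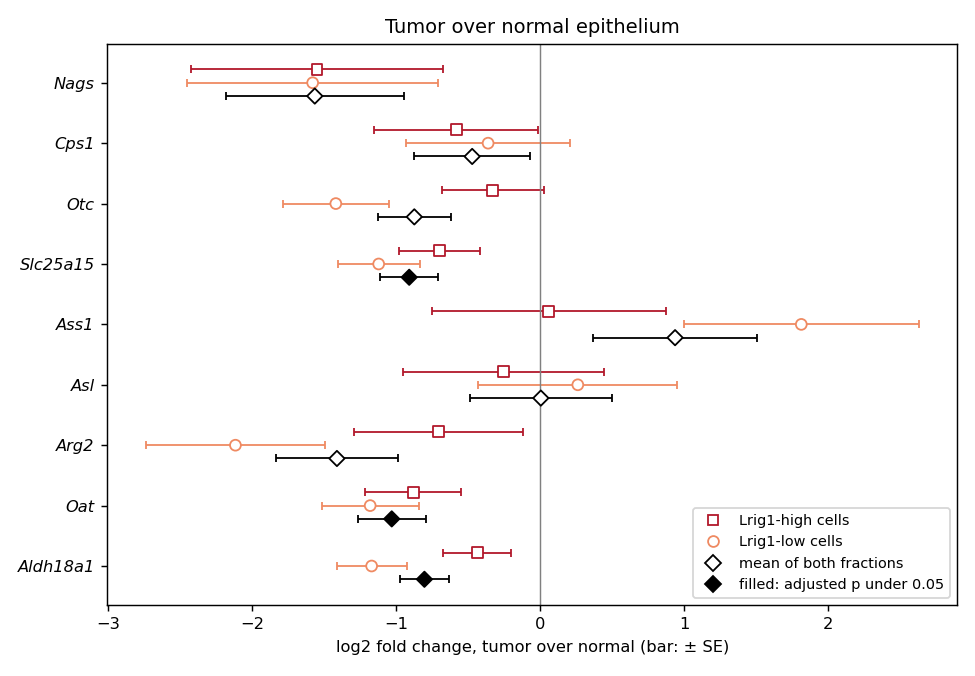
Log2 fold change of tumor over normal cells for the 9 genes, with bars of 1 SE, in Lrig1-high cells (squares), in Lrig1-low cells (circles) and as the mean of both fractions (diamonds, filled where the adjusted p was under 0.05). Points left of 0 are lower in tumor cells, and the 3 filled diamonds are Slc25a15, Oat and Aldh18a1.

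Within Lrig1-high cells, no member passed, and neither did any other gene (0% of 13883 in edgeR, with 1559 genes at an unadjusted p under 0.05, and 74 higher and 40 lower in DESeq2). The log2 fold changes of tumor over normal cells were -1.55 ± 0.87 for Nags (SE, edgeR adjusted p = 0.508), -0.88 ± 0.33 for Oat (adjusted p = 0.37), -0.70 ± 0.28 for Slc25a15 (adjusted p = 0.387) and -0.44 ± 0.24 for Aldh18a1 (adjusted p = 0.499). All tumor libraries were below all normal ones for these 4 and for Otc (-0.33 ± 0.36), 5 of 9 members against 5.02% of all genes. Cps1 stood at -0.58 ± 0.57, Arg2 at -0.71 ± 0.59, Asl at -0.25 ± 0.70 and Ass1 at 0.06 ± 0.81, and their libraries overlapped. Arg2 turned to 0.11 without the normal library S10, Asl to 0.28 without S12, and Ass1 to between -0.35 and -0.07 without S04, S06, S08 or S10.

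Within Lrig1-low cells, 46 of the 13883 genes passed (0.331%), none of them a member. Aldh18a1 came nearest, at -1.17 ± 0.24 (SE, edgeR adjusted p = 0.0524), followed by Slc25a15 at -1.12 ± 0.28 (adjusted p = 0.0861), Otc at -1.42 ± 0.37 (adjusted p = 0.0917), Oat at -1.18 ± 0.34 (adjusted p = 0.118) and Arg2 at -2.11 ± 0.62 (adjusted p = 0.128). Nags stood at -1.58 ± 0.87 (adjusted p = 0.481). The tumor libraries of these 6 members all lay below the normal ones, against 8.39% of all genes. Ass1 was the 1 member whose tumor libraries all lay above the normal ones (1.81 ± 0.82, adjusted p = 0.337), against 9.95% of all genes. Cps1 stood at -0.36 ± 0.57 and, without library S11, at 0.11. DESeq2 called 5 of the members lower here (Otc, Arg2, Oat, Aldh18a1 and Slc25a15), limma-voom with sample weights these and Nags lower and Ass1 higher. Over all genes DESeq2 called 545 higher and 161 lower, and limma-voom 1060 higher and 329 lower. With single libraries left out, Aldh18a1 passed without S03, S09, S10 or S12 (adjusted p 0.0275 to 0.0398), Arg2 without S10 (0.0446), and Nags and Ass1 without S12 (0.0433 and 0.0413).

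The difference between the fractions was tested as an interaction, and no gene passed (0% of 13883 in edgeR, with 999 at an unadjusted p under 0.05, and 1 higher and 4 lower in DESeq2). Otc had the smallest unadjusted p among the members after Aldh18a1, with a log2 difference of 1.09 ± 0.50 (SE, edgeR adjusted p = 0.686), and Aldh18a1 had 0.73 ± 0.33 (adjusted p = 0.686). A positive value means that the tumor difference was less negative in Lrig1-high than in Lrig1-low cells. Arg2 stood at 1.41 ± 0.82 (adjusted p = 0.716), and the other members between -1.75 and 0.42.

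In normal epithelium the sort fractions were set against each other, to ask whether the reporter separates cells by this pathway. No gene passed in edgeR (0% of 13883, with 498 at an unadjusted p under 0.05, and 1 in DESeq2). Aldh18a1 averaged 256 ± 18.6 CPM in Lrig1-high and 363 ± 88.0 CPM in Lrig1-low libraries (SD, n = 4 each), a log2 fold change of -0.51 ± 0.22 (SE, edgeR adjusted p = 1). Arg2 averaged 120.5 ± 105 CPM in Lrig1-high and 232 ± 75.2 CPM in Lrig1-low libraries (-0.94 ± 0.54, adjusted p = 1), and Cps1 1846 ± 661 CPM in Lrig1-high and 1324 ± 142 CPM in Lrig1-low libraries (0.48 ± 0.52, adjusted p = 1). The libraries of the 2 fractions overlapped for all 9 members, against a background of 1.63% of genes apart as higher and 1.21% as lower. Library S10, labelled Lrig1-high, was the 1 library of its label whose Arg2 lay within, and whose Cps1 lay below, the Lrig1-low values. Limma-voom with sample weights called Arg2 (-1.69, adjusted p = 0.00392) and Aldh18a1 (-0.55, adjusted p = 0.0132) lower in Lrig1-high cells, in a fit that called 2057 genes higher and 2112 lower. Without S07, S08, S09 and S10 the edgeR fit called Arg2 (-1.85 ± 0.44, adjusted p = 0.0434) among 474 genes higher and 322 lower, but these libraries were chosen for their Lrig1 level, so that this is not independent support.

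In tumors the sort was compared for the same question, and again no gene passed in edgeR (0% of 13883, with 1042 at an unadjusted p under 0.05, and 6 higher and 16 lower in DESeq2). Otc averaged 106 ± 17 CPM in Lrig1-high and 57.9 ± 33.5 CPM in Lrig1-low libraries (SD, n = 3 each), a log2 fold change of 0.87 ± 0.38 (SE, edgeR adjusted p = 0.655). Its Lrig1-high libraries all lay above the Lrig1-low ones, against 2.22% of all genes, and without S11 its fold change was 0.45. Ass1 had all Lrig1-high libraries below the Lrig1-low ones (-0.99 ± 0.88, adjusted p = 0.789), against 5.24% of all genes. The other members overlapped. Cps1 stood at 0.26 ± 0.60 and turned to -0.20 without S04 and -0.22 without S11.

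Most markers of absorptive cells had a negative fold change in tumor cells too, but their libraries overlapped. The summed level of 15 enterocyte markers was 1880.0 to 6591 CPM in tumor libraries and 2793 to 13409 CPM in normal libraries. In Lrig1-high cells its median was 3995 CPM in tumor and 3066 CPM in normal libraries. In Lrig1-low cells it was 2845 CPM in tumor and 10020 CPM in normal libraries. Of the 15, 14 had a negative log2 fold change, against 7169 of all 13883 genes tested, with a median of -1.11. In edgeR 1 passed as lower (adjusted p under 0.05), against 55 of all genes. For 0 of them all tumor libraries lay below all normal ones, against 79 of all genes. In bulk cells, fewer cells of a type and less RNA per cell cannot be told apart. The part of the enterocyte share in the members' differences was not tested.

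The genes around the cycle were described from 7 lists of 64 genes in the table. Of 11 genes tested for nitrogen entry and aspartate supply, 1 was lower in tumor cells and 0 higher over both fractions. Among all 13883 genes tested, 55 were lower and 253 higher. The list's median log2 fold change was 0.08. Its lower gene was Glud1, the glutamate dehydrogenase that releases ammonia from glutamate. It had 203, 187 and 233 CPM in tumor Lrig1-high, 186, 225 and 173 CPM in tumor Lrig1-low, 295, 279.8, 437 and 275 CPM in normal Lrig1-high and 486, 299, 364 and 309 CPM in normal Lrig1-low libraries, so that all tumor libraries lay below all normal ones. Its log2 fold change was -0.77 ± 0.17 (SE, edgeR adjusted p = 0.0360). It kept its call in 5 of 14 fits with 1 library left out and lost it without S01, S02, S03, S05, S06, S08, S11, S13 or S14 (adjusted p 0.0570 to 0.110, log2 fold change -0.85 to -0.68 over all 14).

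Of 12 transcription factors named for urea cycle genes or enterocytes, 1 was lower, against 55 of all 13883 genes tested. Negative fold changes were found in 11 of the 12, against 7169 of all genes, and the list's median was -0.42. Gata4, a factor of the proximal intestine, had 84.4, 92.7 and 88.4 CPM in tumor Lrig1-high, 106, 80.5 and 109 CPM in tumor Lrig1-low, 142, 140.3, 169 and 172 CPM in normal Lrig1-high and 195, 201, 158 and 202 CPM in normal Lrig1-low libraries. Every tumor library lay below every normal one, with a log2 fold change of -0.88 ± 0.12 (SE, edgeR adjusted p = 0.00618) that passed in all 14 fits with 1 library left out (adjusted p 0.00233 to 0.0230). Within Lrig1-low cells it fell as well (-0.94 ± 0.17, adjusted p = 0.0359), a call lost without S01, S02, S04, S05, S06, S07, S11 or S13 (0.0537 to 0.150). It is also on the list of small intestine markers. Of 11 transporters, with a median log2 fold change of -0.36, 1 passed as higher, against 253 of all genes tested. This was Slc7a6, which exchanges arginine for glutamine and other neutral amino acids. Its lowest, median and highest values were 11.9, 16.5 and 33.0 CPM in tumor and 3.22, 7.96 and 13.5 CPM in normal libraries, and the groups overlapped. Its log2 fold change was 1.27 ± 0.29 (SE, edgeR adjusted p = 0.0431), which lost its call without S01, S02, S03, S05, S06, S07, S10, S11, S12, S13 or S14 (0.0530 to 0.131).

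No gene of the other 4 lists passed. Of 5 proline enzymes (median log2 fold change 0.24), Prodh, which breaks proline down, had 27.2, 45.7 and 60.3 CPM (lowest, median and highest) in tumor and 59.1, 73.2 and 86.4 CPM in normal libraries (log2 fold change -0.67 ± 0.18, SE, edgeR adjusted p = 0.0718). Prodh was thus near the threshold. Of 12 polyamine enzymes (median log2 fold change 0.23), Odc1, which turns ornithine into putrescine, had 68.0, 86.5 and 98.4 CPM in tumor and 59.6, 70.5 and 91.9 CPM in normal libraries (0.22 ± 0.12, adjusted p = 0.380). Sat1, which acetylates polyamines, had 29.6, 35.8 and 58.7 CPM in tumor and 24.3, 36.4 and 47.9 CPM in normal libraries (0.24 ± 0.19, adjusted p = 0.574). Of 8 arginine users (median 0.85), 3 were higher and 0 lower at an unadjusted p under 0.05 in edgeR, against 1476 higher and 936 lower of all 13883 genes. The methyltransferases Prmt1 and Prmt5, named for their level per kb, had fold changes of 0.34 ± 0.24 (adjusted p = 0.493) and 0.13 ± 0.24 (adjusted p = 0.824). Of 3 pyrimidine genes (median 0.15), Cad, which makes its own carbamoyl phosphate in the cytosol, stood at 0.16 ± 0.39 (adjusted p = 0.879) and Umps at 0.15 ± 0.27 (adjusted p = 0.831).

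**Figure D4:**
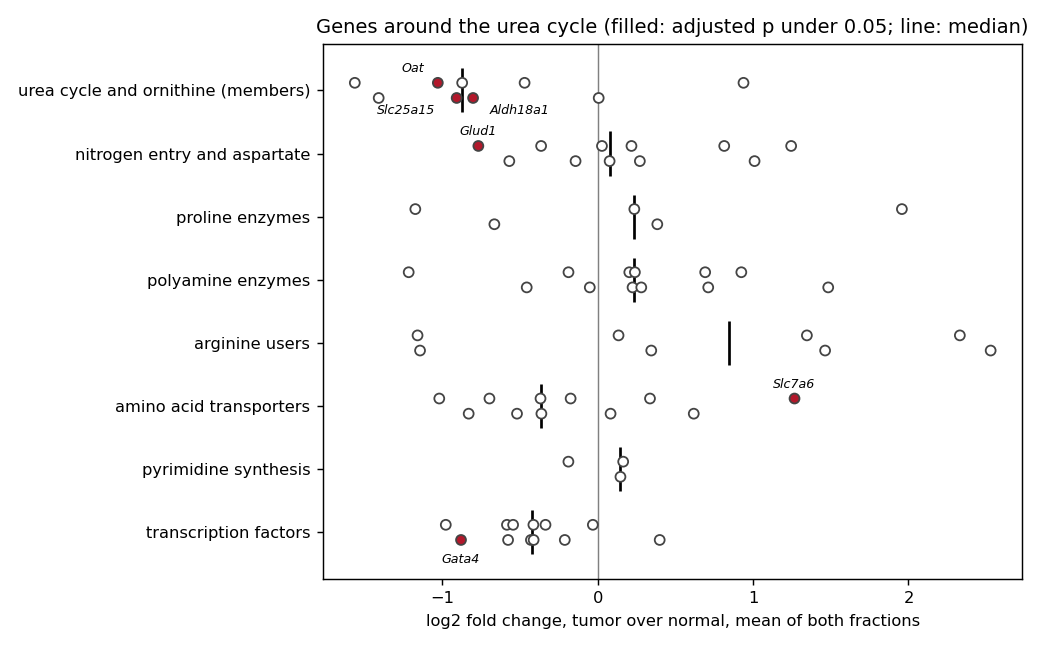
Log2 fold change of tumor over normal cells, mean of both fractions, for the 9 genes and for 7 lists of genes around the cycle. Each circle is a gene, filled where the adjusted p was under 0.05, and the black line is the list's median. The 9 genes have the lowest median of the rows, -0.87, and Oat, Slc25a15, Aldh18a1, Glud1 and Gata4 are filled left of 0 while Slc7a6 is filled right of it.

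Likeness of pattern was measured as the root mean square difference of log2(CPM + 1) over the 14 libraries, after each gene was centred, among 8719 genes with a mean of at least 10 CPM. These libraries share their depth and cell mix, so the values describe them only. Otc had the closest partner of the members, Nr5a2 (0.12), then Tinag (0.28) and Prlr (0.28). Aldh18a1 was nearest to Sdhb (0.20), Peli1 (0.20) and Ndufb10 (0.20), and Slc25a15 to Ifi30 (0.19), Fzd5 (0.20) and Ehhadh (0.20). The pattern of Oat was nearest to those of Thra (0.29), Me2 (0.29) and P2ry1 (0.29), and that of Cps1 to those of Vdr (0.25), Acss1 (0.26) and Far2 (0.28). Arg2 was nearest to Ces2e (0.32), Mttp (0.32) and Slc26a3 (0.32), Nags to Nat8f4 (0.40), Gucd1 (0.40) and Svip (0.43), and Asl to Sh3yl1 (0.22), Sgsm1 (0.23) and Cttn (0.23). Ass1, with a mean under 10 CPM, was not compared. Among the members themselves, Aldh18a1 and Slc25a15 differed least (0.25). Aldh18a1 was the 14th nearest gene to Slc25a15, and Slc25a15 the 28th nearest to Aldh18a1. Next came Aldh18a1 and Oat (0.34) and Oat and Slc25a15 (0.37). The measure is not scaled to a gene's own spread, so genes that vary little also differ less. That spread, as a root mean square, was 0.50 for Aldh18a1, 0.58 for Slc25a15, 0.62 for Oat, 0.85 for Cps1 and 1.09 for Arg2. Cps1 and Arg2 differed from each other by 1.38, more than the 0.79 between Cps1 and Aldh18a1.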

How the data were processed

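RNA was measured in 15 libraries of sorted mouse epithelial cells with a stranded total RNA kit, per the labels' protocols. Trimmomatic, HISAT2 and Subread are named in the submitters' processing notes. The authors deposited unnormalized counts. Per the file headers, featureCounts 1.5.3 assigned reads to mm10 RefSeq exons with the strand reversed, and no option for counting pairs is named. Symbols came from RefSeq for 25275 and from GENCODE M21 for 18 of the 27179 identifiers.

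Groups came from the titles. Library S15 (357 counts, under the minimum of 1000) was left out. Counts were fitted in edgeR 4.0.16 (R 4.3.3) with TMM scaling, filterByExpr (13883 genes, all 9 members among them), 1 coefficient per group over the 14 libraries, and the quasi-likelihood test. P-values were adjusted by Benjamini-Hochberg over all genes tested, and a gene was called under an adjusted p of 0.05. The SE is the absolute log2 fold change divided by the square root of F. The fit was tested on simulated data.

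Alternatives were DESeq2 1.42.0, DESeq2 size factors, limma-voom 3.58.1 with sample weights, a fit to only the groups compared, no filter, a filter of 1 CPM in 4 or more libraries, a block by runs of library numbers, S15 included, S07 to S10 left out, and each library left out in turn. No 2 libraries of a group agreed within sampling noise. The members and lists were chosen with earlier results of these data known. Named beside the members are genes of the lists past the threshold (up to 3 per direction), else the 2 with the highest level per kb, and the 3 genes nearest in pattern. Some genes that this rule selects are not reported here. Promoters are RefSeq's (GRCm38.p6).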

Additional observations from a re-analysis of the deposited data

Results flagged for a closer look

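In 5 of the 18 member and group combinations with 4 libraries, 1 library stood apart from the other 3. For a single combination chance gives about 1 in 20. The combinations reuse the same libraries, and all 5 fell in S10 or S01, so their number cannot be set against that share. In the normal Lrig1-high library S10, Cps1 was at 869 CPM against 2086 to 2329 CPM in the others, Arg2 at 277 CPM against 51.5 to 80.3 CPM and Nags at 46.7 CPM against 28.9 to 30.8 CPM. S10 is also the library of its label with the lowest Lrig1, at 36.4 CPM, and the highest enterocyte sum, at 13409 CPM, and their part in these values was not tested. In the normal Lrig1-low library S01, Arg2 was at 344 CPM against 180.3 to 205 CPM in the others and Slc25a15 at 189 CPM against 142 to 145 CPM.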

How the results depend on the processing

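Over the alternatives, the members' fold changes kept their direction and their side of the threshold in 1102 values, reversed in 56, were no longer past it in 37 and newly past it in 29. The causes were not tested.

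Between tumor and normal cells over both fractions, 253 genes were higher and 55 lower, against 750 and 310 with DESeq2, 498 higher with limma-voom, 143 and 22 with the block by runs of library numbers, 611 higher without S07 to S10, and 31 to 541 and 3 to 519 with 1 library left out. Of the members, 3 were lower, against 5 with DESeq2, 1 with limma-voom, 1 with S15, 0 without S07 to S10 and 0 to 3 with 1 library left out.

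Within Lrig1-high cells, 0 were higher and 0 lower, against 74 and 40 with DESeq2, 1 higher with the block, 12 higher without S07 to S10, and 0 to 263 and 0 to 544 with 1 library left out. Within Lrig1-low cells, 43 were higher, against 545 with DESeq2, 66 with its size factors, 65 with no filter, 81 with the CPM filter, 1060 with limma-voom, 90 with the block, 90 with S15, 432 without S07 to S10 and 0 to 226 with 1 library left out. There 3 were lower, against 161 with DESeq2, 5 with the CPM filter, 7 with only the groups compared, 329 with limma-voom, 5 with the block, 20 without S07 to S10 and 0 to 59 with 1 library left out. Of the members, 0 were lower there, against 5 with DESeq2, 1 with the CPM filter, 6 with limma-voom, 2 with the block and 0 to 2 with 1 library left out, and 0 higher, against 1 with limma-voom and 0 to 1 with 1 library left out.

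Between the sort fractions of normal cells, 0 were higher and 0 lower, against 1 higher with DESeq2, 2057 and 2112 with limma-voom (2 members lower) and 474 and 322 without S07 to S10 (1 member lower). In tumors, 0 were higher and 0 lower, against 6 and 16 with DESeq2, 45 and 3 without S07 to S10, and 0 to 41 and 0 to 324 with 1 library left out. The interaction had 0 higher and 0 lower, against 1 and 4 with DESeq2, and 0 to 7 and 0 to 150 with 1 library left out.

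Some log2 fold changes reversed. Within Lrig1-high cells, Ass1 went to -0.44 and Arg2 to 0.23 without S07 to S10, and Asl to 0.14 with limma-voom. Between normal fractions, Asl went to -0.19 with limma-voom and -0.17 without S07 to S10, and Oat to 0.036 with limma-voom. Between tumor fractions, Arg2 went to -0.36 with limma-voom. Over both fractions, Asl went to -0.034 with no filter, -0.010 with the block, -0.020 with S15 and -0.17 without S07 to S10. In the interaction, Cps1 went to 0.19 with limma-voom, 0.19 with the block, 0.11 with S15 and 0.75 without S07 to S10, and Nags to -0.21 with the block.

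With 1 library left out, the ranges that cross 0 were -0.35 to 0.60 for Ass1, -0.84 to 0.28 for Asl and -1.17 to 0.11 for Arg2 within Lrig1-high cells, and -1.31 to 0.11 for Cps1 within Lrig1-low cells. Between normal fractions they were -0.12 to 0.18 for Asl and -0.25 to 0.084 for Oat. Between tumor fractions they were -0.22 to 1.21 for Cps1, -1.06 to 0.14 for Asl, -1.02 to 0.22 for Nags, -0.018 to 0.46 for Oat and -0.15 to 0.47 for Slc25a15. Over both fractions the range was -0.29 to 0.25 for Asl, and in the interaction -0.70 to 0.73 for Cps1, -1.10 to 0.067 for Asl and -0.60 to 0.61 for Nags.

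The block pairs libraries by runs of numbers that the labels do not tie to an animal or day. With it the adjusted p over both fractions was 0.044 for Aldh18a1, 0.0152 for Oat and 0.0573 for Slc25a15. Low counts limit Ass1 and Asl most, with means of 5.28 and 17.8 CPM over all libraries, against 28.4 CPM for Nags. S12 held 1 read of Ass1, 5 of Asl and 0 of Nags although its total, 13242321 counts, was not the lowest.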

Other observations

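The split of the members' RNA between the cycle's steps differed from library to library. In the tumor Lrig1-low library S11, Ass1 took 2.47% and Asl 4.73% of the 9 genes' CPM per kb, the highest shares of the 14 libraries, and Cps1 took 14.6%, the lowest. In the tumor Lrig1-low library S07, Cps1 took 46.7%, the highest share, and Arg2 1.86%, the lowest. The tumor Lrig1-high library S12 had 0% for Nags, 0.0514% for Asl and 0.00963% for Ass1, while its Otc share, 7.64%, was the highest of the 14.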
